A study of Mus musculus with 6 samples.

Results

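The genes described here mark B lymphocytes, and were chosen by symbol: *Ms4a1*, *Cd79a*, *Cd79b*, *Pax5*, *Cr2*, *Fcer2a*, *Cd22*, *Blk*, and *Fcrla*. All 9 were among the 48440 rows of the read count table, and all 9 were among the 18593 genes that passed the filter on low counts and were tested. The libraries came from dorsal root ganglia (DRGs) of wild-type male mice, whose unilateral L3/4 ganglia had been microinjected with an adeno-associated virus of serotype 5. AAV5-*Gfp*, expressing green fluorescent protein, was the control in 3 libraries, and the other 3 received AAV5-*V1* together with AAV5-*V2* (AAV5-*V1+V2*), which carry both variants of *NIS-lncRNA*, a long noncoding RNA of injured ganglia. No nerve injury is named for either group, the ganglia are given as collected at 5 weeks and as compared at 4 weeks after microinjection, and the age of the mice, the promoter in the viruses and any pooling of animals are not given in the sources used here. Each group had its own virus preparation, so the preparation and the transcripts it carried cannot be told apart.

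B cells sense antigen through a surface immunoglobulin held in a complex with CD79A and CD79B, whose tails carry the activation motifs that Src-family kinases such as BLK phosphorylate. The signal is raised by CR2 (CD21), which binds complement-tagged antigen, and is damped by CD22, a sialic acid-binding receptor. PAX5 is the transcription factor that commits and holds a cell to the B lineage, MS4A1 (CD20) is a membrane protein of mature B cells, FCER2A (CD23) is the low-affinity receptor for immunoglobulin E, and FCRLA is an Fc receptor-like protein found inside B cells. A healthy ganglion consists mostly of neurons, satellite glia, Schwann cells, and macrophages, and B cells are rare in it.

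Total counts per library ranged from 32025612 to 34764282, and 1 count corresponded to a CPM (count scaled by library size) of 0.0289 to 0.0320 after normalization with edgeR's TMM factors. Sensory neuron genes were abundant in every library. The summed level of 9 of them was 5094 to 5425 CPM with AAV5-*Gfp* and 4446 and 4516 CPM in AAV5-*V1+V2* replicates 2 and 3, but 3135 CPM in AAV5-*V1+V2* replicate 1. That library also held the most RNA of the B cell genes. Because whole ganglia were sequenced, more cells of a type and more RNA per cell cannot be told apart.

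The members lie on 7 chromosomes of GRCm38, and in GENCODE M21 each is protein coding. *Cd79a* (chromosome 7, 24897381 to 24902197, plus strand) and *Cd79b* (chromosome 11, 106311341 to 106314762, minus strand) are the most compact, at 4.8 and 3.4 kb. *Cd22* also lies on chromosome 7 (30865402 to 30880342, minus strand), and *Cr2* (195136811 to 195176716) and *Fcrla* (170917576 to 170927583) lie on the minus strand of chromosome 1. On the minus strand as well are *Ms4a1* (chromosome 19, 11249675 to 11266241), *Fcer2a* (chromosome 8, 3681737 to 3694175), *Blk* (chromosome 14, 63372836 to 63417037), and *Pax5* (chromosome 4, 44524757 to 44710487). *Pax5* spans 185.7 kb, of which 4.77% is exonic. Overlapping genes on the opposite strand share 479 exon bases with *Cd22* (Gm29439) and 125 (Gm12462) and 636 (5730488B01Rik) with *Pax5*, and these held 1, 2, and 0 counts over all 6 libraries. 4930526L06Rik, which overlaps *Ms4a1* on the opposite strand without sharing exon bases, held 952 counts.

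The promoters are shown as a description of the members, and their part in the changes was not tested. Windows from 250 bases before to 50 bases after a start site were taken from RefSeq (GRCm38.p6), in which 6 members had 8 windows. *Ms4a1*, *Cd79b*, and *Blk* had no entry. In both sequences the capitals mark matches to the palindromic site of EBF1 (TCCC and GGGA with 2 free bases between them) or to CAGGTG, an E-box bound by E2A proteins, read on both strands, and no match overlaps another.
Cd79a, chr7:24897247-24897546, plus strand: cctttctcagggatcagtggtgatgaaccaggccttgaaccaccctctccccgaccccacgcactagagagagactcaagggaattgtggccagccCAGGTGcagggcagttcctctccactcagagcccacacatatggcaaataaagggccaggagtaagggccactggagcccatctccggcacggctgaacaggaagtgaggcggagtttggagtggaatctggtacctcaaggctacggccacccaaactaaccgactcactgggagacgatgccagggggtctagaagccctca
Cd22, chr7:30878979-30879278, minus strand: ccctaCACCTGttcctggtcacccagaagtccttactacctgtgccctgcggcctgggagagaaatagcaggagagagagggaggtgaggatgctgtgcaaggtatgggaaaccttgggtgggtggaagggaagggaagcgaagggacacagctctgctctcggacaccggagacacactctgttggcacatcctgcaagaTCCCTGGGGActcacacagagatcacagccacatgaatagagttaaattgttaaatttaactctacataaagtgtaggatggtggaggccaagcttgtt
The EBF1 letters were found in the *Cd22* window, 49 bases before the start site, and in 1 of the 8 member windows, against 0.904% of 32851 promoter windows. This *Cd22* start site lies inside the GENCODE M21 gene, whose model begins at 30880342 on the minus strand. CAGGTG was found in 5 of the 8, of *Cd79a*, *Cd22*, *Cr2*, *Fcer2a*, and *Fcrla*, against 20.2% of the 32851 windows. The 32851 leave out the windows of 1 chromosome, which holds no member. The octamer ATGCAAAT and the PU.1 sequence GAGGAAGT, held by 1.74% and 3.20% of the 32851 windows, were in 0 of the 8. A match of letters describes the window and was not tested for binding. Only these strings were searched, so a window without a match may hold a site with other letters.

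All 9 genes rose with AAV5-*V1+V2*. Their log2 fold changes ran from 2.17 for *Cr2* to 5.49 for *Ms4a1*, with a median of 2.98, where the median over all genes tested was -0.0003. Of all genes tested, 10.1% were called higher by edgeR's quasi-likelihood test at a Benjamini-Hochberg adjusted p under 0.05. For each of the 9, every AAV5-*V1+V2* library lay above every AAV5-*Gfp* library, which was so for 23.4% of all genes tested. An exact two-sided permutation test of a single gene cannot go below p = 0.1 with 3 libraries against 3.

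The signalling chains of the B cell receptor were detected in the control ganglia at low counts. Counts are given in the order of replicates 1, 2, and 3. *Cd79a* was counted 85, 47, and 57 times in the controls and 640, 365, and 297 times after AAV5-*V1+V2*, which was 1.94 ± 0.646 CPM (SD, n = 3) against 13.0 ± 5.68 CPM (SD, n = 3). *Cd79b* had 62, 38, and 39 counts and then 669, 352, and 324, or 1.42 ± 0.438 CPM against 13.5 ± 5.99 CPM. The lowest AAV5-*V1+V2* library was above the highest AAV5-*Gfp* library for both chains. *Blk*, the Src-family kinase that acts on these chains, had 51, 32, and 33 counts with AAV5-*Gfp* and 606, 205, and 187 with AAV5-*V1+V2*. Its spread within the AAV5-*V1+V2* group was the widest relative to its mean (10.01 ± 7.29 CPM), as replicate 1 stood 3.17-fold above the mean of the other two.

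The receptors that tune this signal rose by different amounts. *Cr2*, the complement receptor, varied least among the controls relative to its level, with 197, 191, and 155 counts, and 1159, 608, and 723 counts with AAV5-*V1+V2* (5.53 ± 0.569 CPM against 24.9 ± 9.09 CPM). In *Cr2*, *Ms4a1*, and *Fcer2a*, AAV5-*V1+V2* replicate 3 was above replicate 2, and in the other 6 it was below. *Cd22*, the inhibitory receptor, had 81, 44, and 30 counts in the controls and 1125, 556, and 479 counts with AAV5-*V1+V2* (1.58 ± 0.820 CPM against 21.6 ± 11.0 CPM). *Fcer2a*, the immunoglobulin E receptor, had 42, 35, and 32 counts and then 290, 138, and 145 (1.11 ± 0.164 CPM against 5.73 ± 2.67 CPM). *Cr2* and *Fcer2a*, which follicular dendritic cells also express, had the smallest fold changes of the 9.

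*Ms4a1* was nearly undetected in the controls, with 12, 12, and 4 counts, and reached 708, 276, and 314 counts with AAV5-*V1+V2* (0.282 ± 0.134 CPM against 13.0 ± 7.40 CPM). *Pax5* was the most counted member in both groups, with 268, 204, and 186 counts in the controls and 2818, 1315, and 1177 with AAV5-*V1+V2* (6.72 ± 1.37 CPM against 53.2 ± 28.3 CPM). *Fcrla* had 34, 26, and 24 counts and then 343, 132, and 116 (0.858 ± 0.170 CPM against 5.92 ± 3.91 CPM). In all 3 genes the groups stood apart, and AAV5-*V1+V2* replicate 1 was the highest library.

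**Figure D1:**
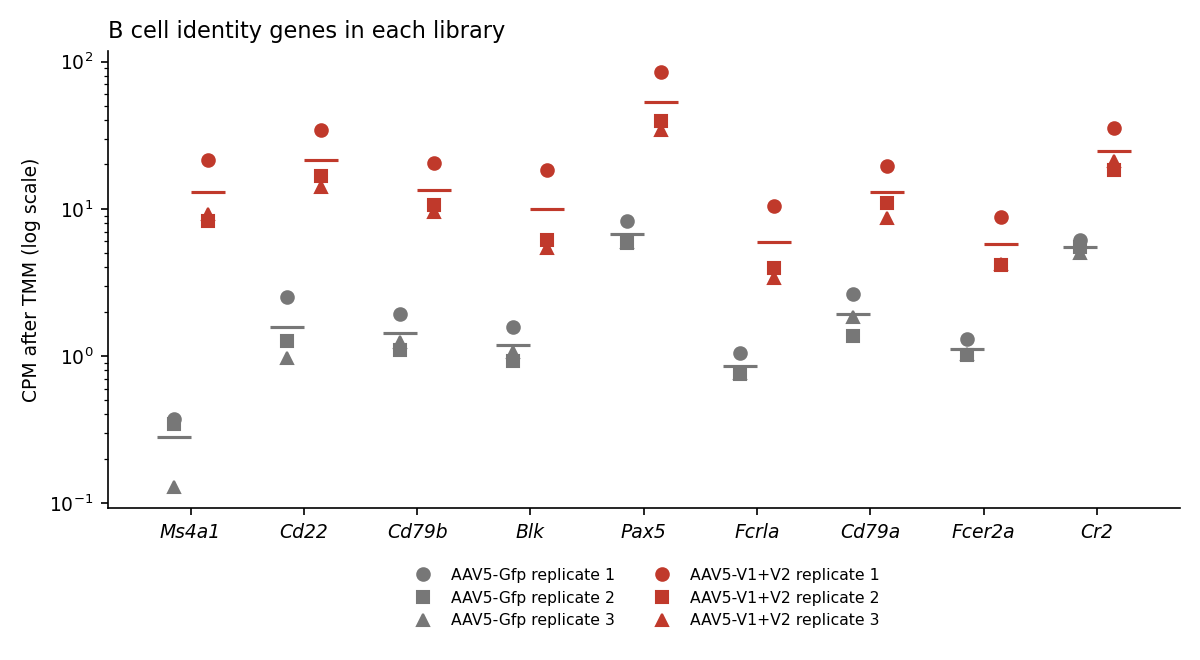
CPM after TMM normalization (log scale) of each of the 9 genes in each library, with AAV5-*Gfp* in grey, AAV5-*V1+V2* in red, symbols for the replicates and bars for the group means. The groups do not overlap for any of the 9, and AAV5-*V1+V2* replicate 1 is the highest library for every gene (21.5 CPM for *Ms4a1*, where the controls lie between 0.128 and 0.372).

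In the fit over all genes, the log2 fold change was 5.49 for *Ms4a1* (standard error 0.54, edgeR adjusted p = 0.00803), 3.77 for *Cd22* (0.47, adjusted p = 0.0139), and 3.24 for *Cd79b* (0.36, adjusted p = 0.0138). They were followed by *Blk* (3.07, standard error 0.53), *Pax5* (2.98, 0.37), *Fcrla* (2.78, 0.48), and *Cd79a* (2.75, 0.37). *Fcer2a* was at 2.36 (standard error 0.34) and *Cr2* at 2.17 (0.25), and the adjusted p-values of these 6 lay between 0.0139 and 0.0172. *Ms4a1* ranked 68th and *Cr2* 466th of all genes tested by log2 fold change. Leaving out 1 control library changed the calls over all genes as well as those of the 9. Without AAV5-*Gfp* replicates 1, 2, and 3 in turn, 257 of 18975, 12 of 18917, and 15 of 18947 genes tested were called higher. At an unadjusted p under 0.05 in edgeR's test, 3086, 2916, and 2932 genes were higher in these fits. Without AAV5-*Gfp* replicate 2, 0 of the 9 passed (adjusted p from 0.0804 to 0.0848 by edgeR's test), and without replicate 3 also 0 (0.0875 to 0.0908), although all 9 had an unadjusted p under 0.05 in both of these fits. Without AAV5-*Gfp* replicate 1, 6 passed, and *Fcer2a*, *Blk*, and *Fcrla* had adjusted p-values from 0.05 to 0.0542. Over all 6 fits that each left out 1 library, the unadjusted p-values of the 9 genes were 0.00443 or less. Without AAV5-*V1+V2* replicate 1, all 9 passed, their median fell to 2.35, and *Blk* (2.29) and *Fcrla* (2.10) moved the most.

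**Figure D2:**
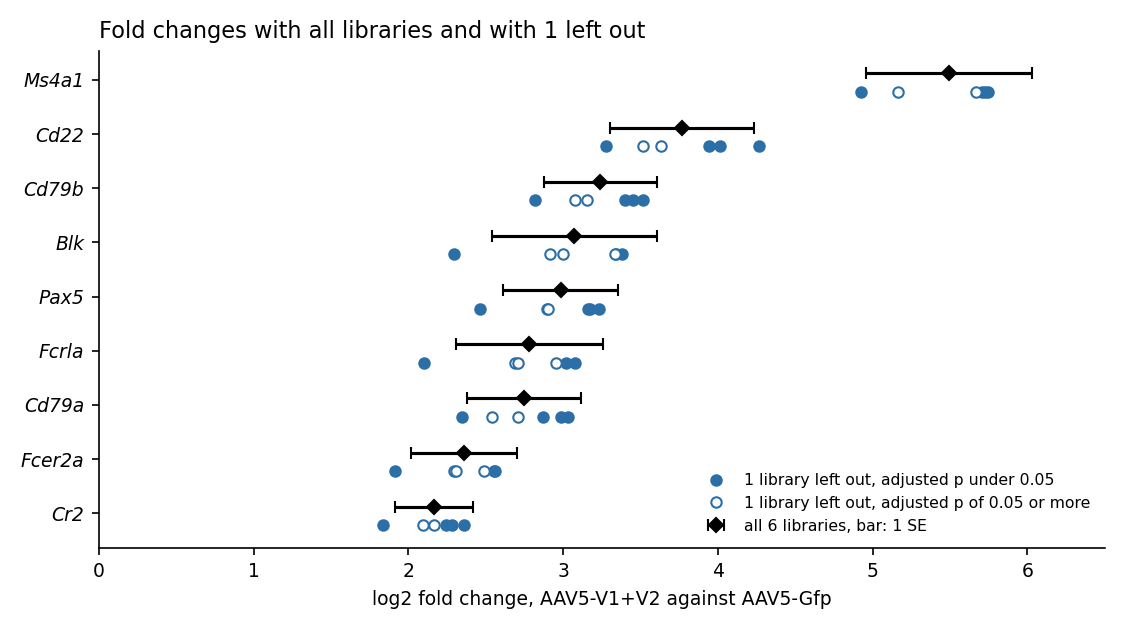
Log2 fold change of each of the 9 genes, as a diamond with a bar of 1 standard error for all 6 libraries and as circles for the fits that each left out 1 library, open where the adjusted p was 0.05 or more. All values lie above 0, from 1.84 (*Cr2*) to 5.75 (*Ms4a1*), and every gene has at least 2 open circles.

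Levels can be compared between genes only per length, so CPM was divided by the length of all exons of a gene together in GENCODE M21. With AAV5-*V1+V2*, *Cd79b* (9.40 ± 4.18 CPM per kb, SD, n = 3) and *Cd79a* (8.94 ± 3.90) were the most abundant, followed by *Pax5* (6.004 ± 3.19), *Cd22* (4.29 ± 2.18), *Blk* (3.71 ± 2.70), *Fcrla* (3.40 ± 2.24), *Cr2* (3.06 ± 1.12), *Ms4a1* (2.10 ± 1.20), and *Fcer2a* (1.85 ± 0.864). No neighbours in this order differed beyond their spread over the libraries. Within each AAV5-*V1+V2* library, however, *Cd79a*, *Cd79b*, and *Pax5* were the 3 highest. In the controls the order was *Cd79a* (1.33 ± 0.443), *Cd79b* (0.994 ± 0.306), *Pax5* (0.759 ± 0.155), *Cr2* (0.681 ± 0.0701), *Fcrla* (0.492 ± 0.0973), *Blk* (0.440 ± 0.129), *Fcer2a* (0.360 ± 0.0530), *Cd22* (0.313 ± 0.163), and *Ms4a1* (0.0456 ± 0.0216). Only *Cr2* from *Fcrla* and *Cd22* from *Ms4a1* stood apart, in that the libraries of these neighbours did not overlap. Both chains of the receptor complex gained most per length, 7.61 CPM per kb for *Cd79a* and 8.41 for *Cd79b*, and the ratio of *Cd79a* to *Cd79b* per length was 1.22 to 1.44 in the controls and 0.900 to 1.02 with AAV5-*V1+V2*. The sources used here do not say whether reads in introns were counted, and the libraries were made from total RNA, so the level of *Pax5* per length of exon is uncertain.

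**Figure D3:**
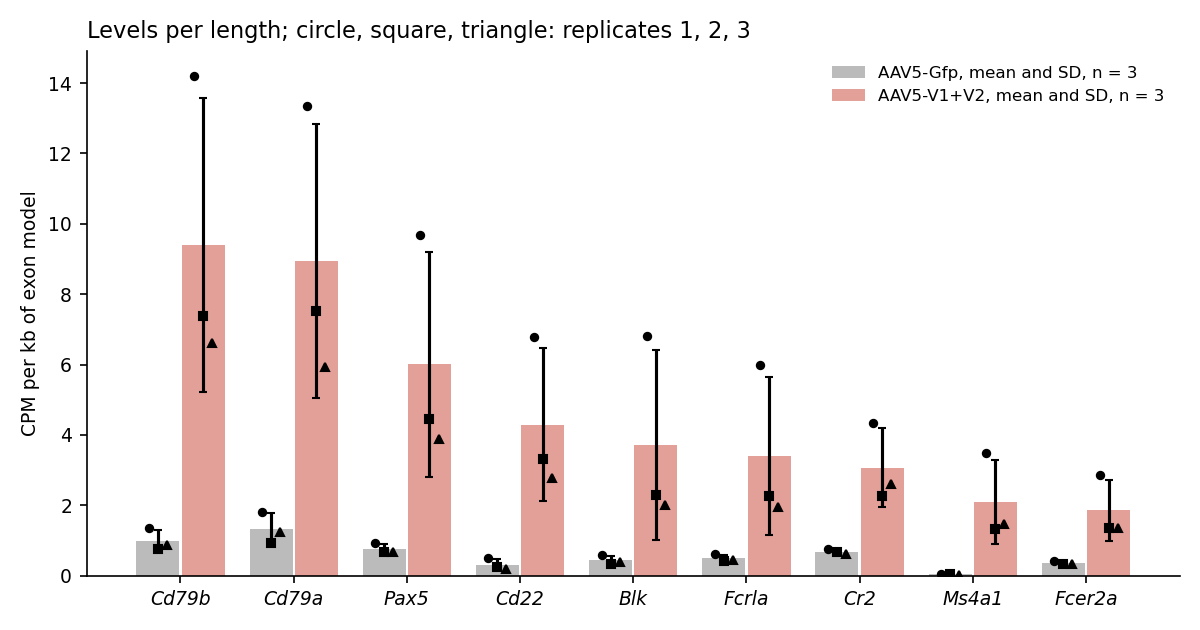
CPM per kb of exon model for the 9 genes, as group means (bars) with SD (n = 3) and the 3 libraries as symbols. *Cd79b* and *Cd79a* are highest with AAV5-*V1+V2* (9.40 and 8.94), while *Ms4a1* is lowest in the controls (0.0456).

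The makeup of the summed counts of the 9 genes was stable for some members and not for others. *Pax5* made up 31.3% to 33.7% of these counts in every library, with exact 95% binomial intervals of 29.8% to 32.8% in the lowest library (AAV5-*V1+V2* replicate 3) and 32.7% to 34.7% in the highest (AAV5-*V1+V2* replicate 1). These intervals cover counting error only. *Ms4a1* made up 0.714% to 1.91% in the controls and 6.99% to 8.47% with AAV5-*V1+V2*, and the upper bound of 3.31% in AAV5-*Gfp* replicate 2 lay below the lowest bound of 6.22% with AAV5-*V1+V2*. The share of *Cr2* went the other way, from 23.7% to 30.4% in the controls and from 13.9% to 19.2% with AAV5-*V1+V2*. The shares of *Cd22* (5.36% to 9.74% against 12.7% to 14.1%) and *Cd79b* (6.04% to 7.45% against 8.0% to 8.92%) were also higher with AAV5-*V1+V2*. That of *Fcer2a* was lower (5.05% to 5.71% against 3.47% to 3.85%). For *Cd22*, *Cd79b*, and *Fcer2a* the binomial intervals of the groups overlapped. *Blk* and *Fcrla* held similar shares in both groups, 5.09% to 6.13% against 4.97% to 7.25% for *Blk* and 4.09% to 4.29% against 3.08% to 4.10% for *Fcrla*.

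The libraries of a group were not alike. Relative to the mean of the controls, the median member was 12.8-fold higher in AAV5-*V1+V2* replicate 1, 5.66-fold in replicate 2, and 4.59-fold in replicate 3. Replicate 1 exceeded the mean of replicates 2 and 3 by 1.79-fold (*Cr2*) to 3.17-fold (*Blk*), whereas replicates 2 and 3 differed by 0.867-fold (*Cr2*) to 1.27-fold (*Cd79a*). Among the controls, AAV5-*Gfp* replicate 1 was above the mean of the other two for every member, by 1.17-fold (*Cr2*) to 2.25-fold (*Cd22*). The labels give no batch or date by which these libraries could be divided.

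Other genes of the pathway were taken from 5 fixed lists of 71 genes, all of which were tested. Of these, 55 were higher, 1 was lower and the median log2 fold change was 2.07. Over all genes tested, 10.1% were called higher and 5.27% lower. Among kinases, adaptors, and enzymes downstream of the receptor, 16 of 19 rose (median 1.67). They included *Blnk*, the adaptor that links SYK to phospholipase C (log2 fold change 2.46, standard error 0.32), and *Pik3ap1*, an adaptor for phosphoinositide 3-kinase (1.99, 0.28). *Prkcb*, *Fyn*, and *Cd81*, named after their values were seen, did not pass, with log2 fold changes of 0.60, 0.24, and 0.13 and 3452 or more counts in each library. *Prkcb* was just over the threshold (adjusted p = 0.0502 by edgeR's test). It was called in 6 of 12 alternative fits, and *Fyn* and *Cd81* in 0. Of the inhibitory receptors and phosphatases, 8 of 8 rose (median 2.34). Among them were *Cd5* (3.19, standard error 0.32), which T cells also express, *Cd72* (2.13, 0.26), and *Siglecg* (2.51, 0.35), a relative of *Cd22*. Both lists name a pathway and do not show which cells held the RNA. Macrophage genes rose too (median 1.51), and the part of such cells in these counts was not tested.

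Of 15 transcription factors of the B lineage, 10 rose (median 1.79). *Pou2af1*, a coactivator of octamer-binding factors, had 78, 46, and 46 counts in the controls and 1231, 625, and 728 with AAV5-*V1+V2* (log2 fold change 3.89, standard error 0.35). *Irf4*, a factor of activated B and plasma cells, was at 2.53 (0.23) and *Ikzf3*, the lymphoid factor Aiolos, at 2.95 (0.37). The other 5, *Ebf1*, *Foxo1*, *Bach2*, *Bcl6*, and *Id3*, named after their values were seen, had log2 fold changes from -0.18 to 0.31 and 795 or more counts in each library. *Ebf1*, which acts with *Pax5* in B cells, had 15389 to 18992 counts in the controls and 14938 to 17701 with AAV5-*V1+V2*, and the groups overlapped. In the controls these 5 were at 4.04 (*Bcl6*) to 55.3 (*Ebf1*) CPM per kb of exon, against 1.33 for *Cd79a*, the highest member. Which cells gave these reads was not tested, so a change confined to B cells could be hidden.

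Of 18 other surface and homing genes of B cells, 14 rose (median 2.998), among them *Cxcr5* (3.39, standard error 0.39), the receptor that guides B cells into follicles, *Cd37* (2.94, 0.38), a tetraspanin of lymphocytes, and *H2-Ob* (3.35, 0.44), which modulates peptide loading of class II molecules. The other 4, *Cd24a*, *Cd55*, *S1pr1*, and *Cd200*, named after their values were seen, had log2 fold changes from -0.36 to 0.24. In the controls these 4 were at 5.25 (*S1pr1*) to 159.6 (*Cd24a*) CPM per kb of exon, and which cells gave these reads was not tested. Among 11 genes for the survival and attraction of B cells, 7 rose and *Il4*, named after its values were seen, was lower. Its log2 fold change was -0.44, with 968, 1020, and 970 counts against 600, 785, and 852. The call was lost without any 1 of the controls (adjusted p from 0.117 to 0.15 by edgeR's test). In the controls *Il4* was at 24.6 CPM per kb of exon, against 1.33 for *Cd79a*, the highest member. Which cells or transcripts gave these *Il4* reads was not tested. *Tnfrsf13c*, the receptor for the survival factor BAFF, was at 3.31 (0.39) and *Tnfrsf13b*, the receptor TACI, at 2.24 (0.24). *Cxcl13*, the ligand of CXCR5, had 25, 2, and 1 counts in the controls and 568, 555, and 324 with AAV5-*V1+V2* (5.64, standard error 0.71), and its log2 fold change was 8.20 without AAV5-*Gfp* replicate 1. Of all genes tested, 5.27% were called lower with all libraries, and 59, 0, and 0 genes without AAV5-*Gfp* replicates 1, 2, and 3. Of the 71 genes, 22 were called higher without AAV5-*Gfp* replicate 1, against 257 of all genes tested. Without replicate 2 and without replicate 3, 0 of the 71 were called higher by edgeR's test, against 12 and 15 of all genes. In these fits 57 and 59 of the 71 were higher at an unadjusted p under 0.05.

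**Figure D4:**
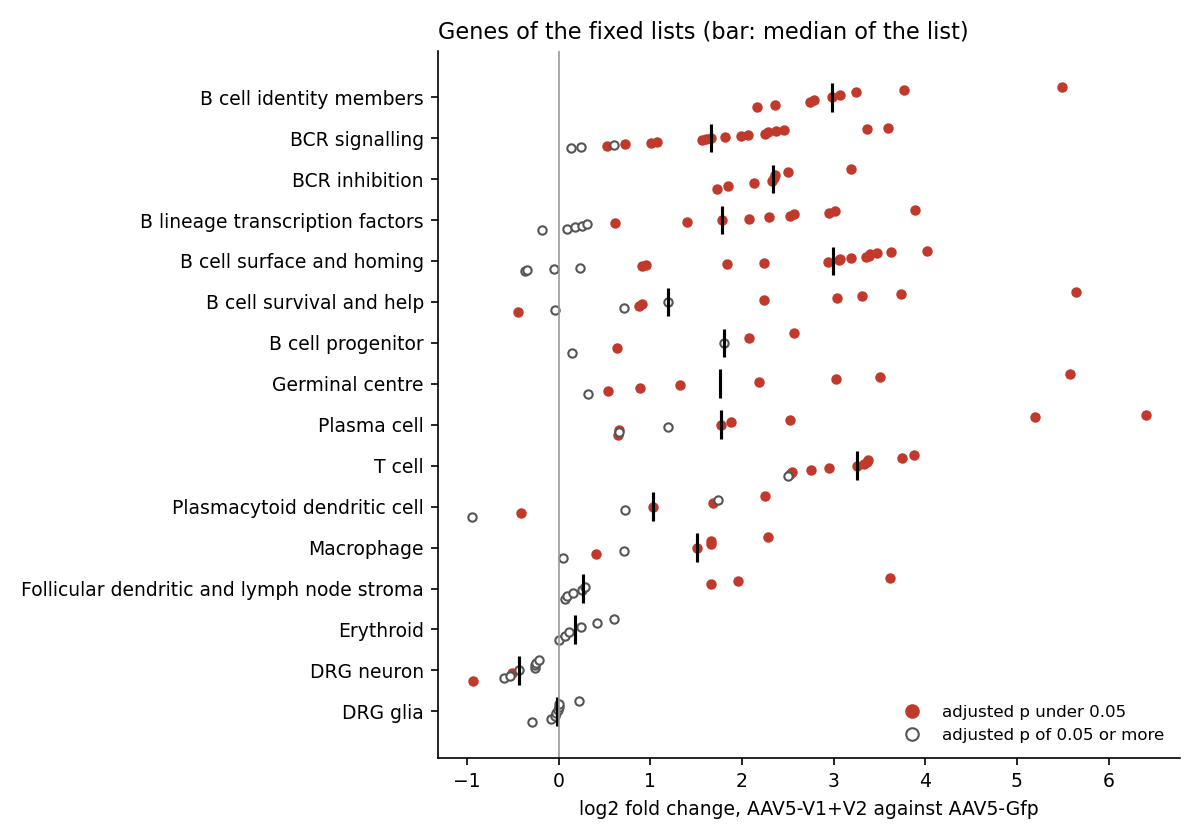
Log2 fold change of every tested gene of the 16 lists, filled where the adjusted p was under 0.05 in either direction, with a bar at the median of each list. The B cell identity genes have a median of 2.98 and the T cell genes of 3.26, whereas those of erythroid cells (0.18), glia (-0.02), and neurons (-0.43) lie near or below 0.

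Some genes of early and of activated B cells had few counts. Of 10 genes of B cell progenitors, 5 did not pass the filter on low counts, and *Rag1* and *Rag2*, the recombinase genes, named after their values were seen, had at most 2 counts in any library. Among the 5 tested, 3 rose, *Il7r* (log2 fold change 2.56, standard error 0.32), *Vpreb3* (2.07, 0.34), and *Cd93* (0.64, 0.13), and T cells also express *Il7r*. Of 9 genes of germinal centre B cells, 8 were tested and 7 rose. *Nuggc* had 7, 4, and 9 counts with AAV5-*Gfp* and 63, 67, and 108 with AAV5-*V1+V2*, and *Gcsam* had 19, 15, and 20 and then 106, 86, and 61. Of 9 plasma cell genes, 7 rose, among them *Jchain* (6.41, standard error 0.39) and *Mzb1* (5.20, 0.54), whose log2 fold changes were 7.16 and 6.10 without AAV5-*Gfp* replicate 1. Without AAV5-*Gfp* replicate 2 or without replicate 3, *Jchain* was the only gene of these 3 lists that passed (adjusted p = 0.00999 and 0.0271 by edgeR's test). Without AAV5-*Gfp* replicate 1, 1 progenitor, 3 germinal centre, and 6 plasma cell genes passed. With all libraries, 10.1% of all genes tested were called higher. The fits without AAV5-*Gfp* replicates 1, 2, and 3 called 257, 12, and 15 of all genes higher.

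Some markers of other cells moved with the B cell genes, and their part in these results was not tested. Of 11 T cell genes, 10 rose, with a median of 3.26, and their summed level was 9.07 to 19.4 CPM in the controls and 70.1 to 149 CPM with AAV5-*V1+V2*. The 9 B cell genes had 17.9 to 25.8 CPM and 110 to 254 CPM, and the ratio of both sums was 1.33 to 1.997 in the controls and 1.46 to 1.70 with AAV5-*V1+V2*, so that the groups overlapped. Of 7 macrophage genes, 5 rose (median 1.51, summed level 106 to 140.5 CPM against 198 to 355 CPM), with *Aif1* at 1.66, *Adgre1* at 1.66, and *Cd68* at 2.29. Of 7 genes of plasmacytoid dendritic cells, which also express *Blk*, 3 rose (*Siglech* 2.26, *Bst2* 1.69, and *Ccr9* 1.03) and *Pacsin1*, a gene of neurons as well that was named after its values were seen, was lower (summed level 121 to 132 CPM against 137 to 208 CPM). Of 8 tested genes of lymph node stroma and follicular dendritic cells, only 3 rose (median of the 8 0.27, summed level 36.0 to 38.9 CPM against 64.7 to 97.4 CPM). These were *Mfge8* (1.66), *Glycam1* (1.95), and *Ccl19* (3.62, and 2.48 without AAV5-*V1+V2* replicate 1). Without AAV5-*Gfp* replicate 1, the calls covered 10 T cell genes, 1 macrophage gene, 1 gene of plasmacytoid dendritic cells, and 2 stromal genes. Without AAV5-*Gfp* replicate 2 or without replicate 3, 0 genes of these 4 lists passed in edgeR's test. In these fits 11 and 11 of the T cell genes had an unadjusted p under 0.05. Of all genes tested, 10.1% were called higher with all libraries, and 257, 12, and 15 genes without AAV5-*Gfp* replicates 1, 2, and 3.

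Of 6 erythroid genes, a sign of retained blood, 0 were called by edgeR, DESeq2, or limma-voom (1 at an unadjusted p under 0.05 in edgeR), and their summed level was 893 to 1070 CPM with AAV5-*Gfp* and 834 to 1253 CPM with AAV5-*V1+V2*. Of 8 glial genes, 0 were called by the same 3 methods (1 at an unadjusted p under 0.05), and the sums again overlapped (3644 to 4388 CPM and 3848 to 4167 CPM). Of 9 neuronal genes, *Rbfox3* (log2 fold change -0.93, standard error 0.19) and *Pvalb* (-0.51, 0.11) were lower, against 5.27% of all genes tested. All 9 had log2 fold changes below 0, from -0.93 to -0.22. DESeq2 called 4 of them lower and limma-voom 2. Without AAV5-*V1+V2* replicates 1, 2, and 3 in turn, 4, 0, and 4 were called lower. Neither *Rbfox3* nor *Pvalb* was called without any 1 of the AAV5-*Gfp* libraries, with adjusted p-values from 0.0556 to 0.0972 by edgeR's test. The fits without AAV5-*Gfp* replicates 1, 2, and 3 called 59, 0, and 0 of all genes lower.

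**Figure D5:**
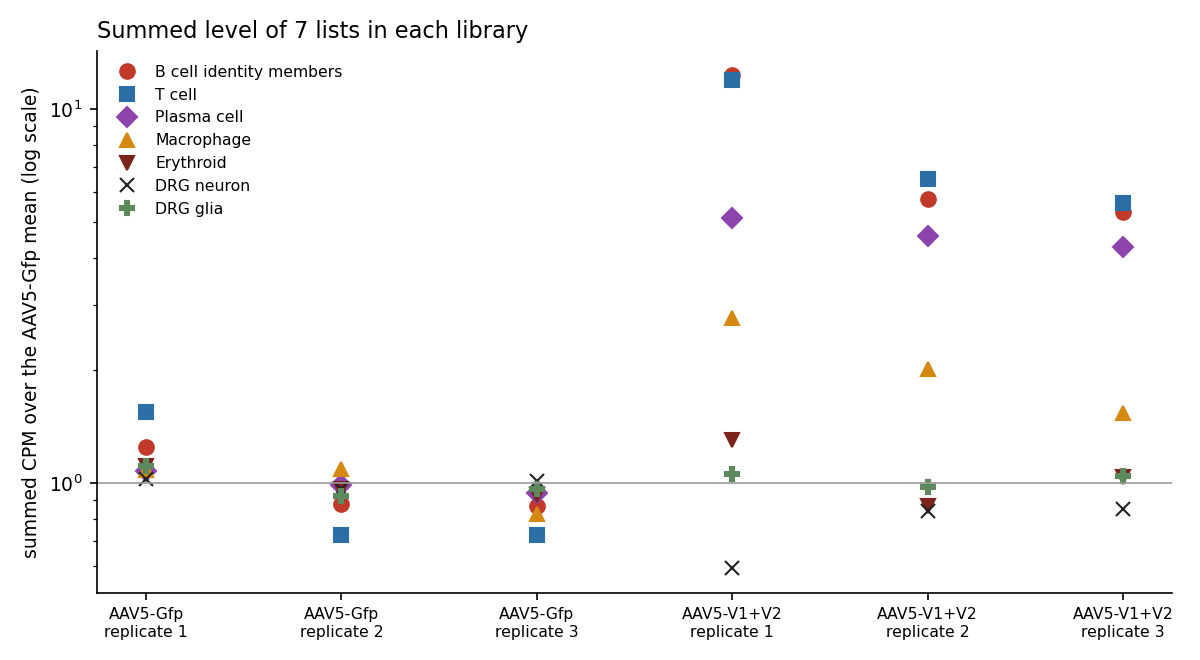
Summed CPM of 7 lists in each library, divided by the mean of the 3 AAV5-*Gfp* libraries (log scale). The B cell identity genes and the T cell genes are highest in AAV5-*V1+V2* replicate 1, where the neuronal genes are lowest (3135 CPM), and the groups overlap for the erythroid and glial genes.

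The genes whose pattern was most like that of the 9 were found by the root mean square difference, over the 6 libraries, between a gene's centred log2 CPM and the mean centred profile of the members. Outside the members and the immunoglobulin and T cell receptor segments, the nearest were *Gpr174* (0.042), a lysophosphatidylserine receptor of lymphocytes, *Btla* (0.0567), an inhibitory receptor of lymphocytes, *Ikzf3* (0.117), *Spib* (0.141), an ETS factor of B cells and plasmacytoid dendritic cells, and *Ptprc* (0.141), which encodes the leukocyte antigen CD45. Of the members themselves, *Pax5* (0.0794) and *Cd79b* (0.115) were nearest to their own mean and *Ms4a1* (1.06) was farthest. *Ptprc* had 1289, 963, and 811 counts with AAV5-*Gfp* and 11917, 5400, and 4804 with AAV5-*V1+V2*. The summed CPM of the 9 genes was 0.646 to 0.691 of the *Ptprc* level in the controls and 0.701 to 0.783 of it with AAV5-*V1+V2*. The second range lay above the first by less than the spread within either group. *Ptprc* was picked for its likeness to the members over these same libraries, so similar ratios in both groups follow from that choice.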

How the data were processed

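Total RNA of L3/4 DRGs was sequenced in 3 libraries per group, and groups were taken from the sample titles. Values are unnormalized read counts by gene symbol, as deposited by the authors. The submitters' processing notes name GRCm38 and mm10, and the aligner, the counter, the annotation, and the use of strand are not given in the sources used here. Nothing says that the libraries came from separate animals, so the p-values measure the spread between these libraries only. Pairs of libraries of 1 group differed by chi-square values of 8.27 to 48.9 per degree of freedom, which is more than sampling noise.

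The main test was that of edgeR 4.0.16 in R 4.3.3 (filterByExpr, TMM, glmQLFit, and glmQLFTest without a covariate), and Benjamini-Hochberg adjustment covered all 18593 genes tested. Standard errors were derived from the F statistic of each gene and its coefficient. A pseudocount of 0.1 CPM was used for likeness of patterns. The test was tried on simulated counts first. Alternatives were DESeq2 1.42.0, limma-voom (limma 3.58.1), other normalizations, no filter, a replicate block, a 2-fold threshold, and leaving out each library.

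The members and the lists were chosen with earlier results of these data known. The genes named are the 9 members, at most 3 genes of each other list (those with the smallest p), and the 5 nearest in pattern, and genes that overlap a member are named for their position. Any others are said to have been named after their values were seen. Some genes that the rule names are not reported here. Lists are described by counts and medians only. Gene models came from GENCODE M21 and promoter windows from RefSeq.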

Additional observations from a re-analysis of the deposited data

How the results depend on the processing

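All 9 genes kept their direction in each of the 12 alternatives, and all 9 were called in RLE normalization, total counts, no filter, DESeq2, limma-voom, the replicate block, and the fits without any 1 of the AAV5-*V1+V2* libraries. The 2-fold threshold, and leaving out immunoglobulin and T cell receptor segments (chosen after seeing the data), also left 9. Over the fits that each left out 1 library, the number of members called ranged from 0 to 9, the genes called higher from 12 to 2474 and the genes called lower from 0 to 1446, against 1872 and 980 with all libraries. In those fits the log2 fold changes ranged from 4.92 to 5.75 for *Ms4a1*, 2.35 to 3.03 for *Cd79a*, 2.82 to 3.52 for *Cd79b*, 2.46 to 3.23 for *Pax5*, 1.84 to 2.36 for *Cr2*, 1.91 to 2.56 for *Fcer2a*, 3.28 to 4.27 for *Cd22*, 2.29 to 3.38 for *Blk*, and 2.10 to 3.08 for *Fcrla*. These fits have fewer samples by construction, but why the control libraries counted for more was not tested. DESeq2 called 1606 lower genes, and the cause was not tested. Over all genes tested, same-numbered libraries of both groups had correlations of their deviations of 0.0378, 0.0649, and 0.139. The numbers were therefore not taken as pairs. For each of the 9 genes, however, replicate 1 was the highest library in both groups. With the replicate block the adjusted p-values of the 9 genes ranged from 6.85e-05 to 0.00207, and 2118 higher and 1341 lower genes were called. Depth limits *Ms4a1* in the controls, where it had 4 to 12 counts.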

Other observations

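The B cell identity genes and some genes of activated B cells did not have the same order over the AAV5-*V1+V2* libraries. AAV5-*V1+V2* replicate 1 held the most counts of all 9 identity genes, for example 1125 of *Cd22* against 556 and 479 in replicates 2 and 3. For the germinal centre genes *Nuggc* (63, 67, and 108 counts), *Rgs13* (25, 27, and 51), and *Mybl1* (234, 247, and 293), the highest library was replicate 3. *Mybl1* already had 177, 185, and 159 counts with AAV5-*Gfp*. *Rgs13*, *Mybl1*, *Fas*, *S1pr2*, and *Basp1* were named after their values were seen. Of the same list, *Gcsam* (106, 86, and 61), *Fas* (494, 269, and 282), and *S1pr2* (456, 351, and 316) were highest in replicate 1. *Basp1* (1522, 1591, and 1308), which was not called, was highest in replicate 2. *Jchain*, a gene of antibody-secreting cells, had 6375, 6017, and 5792 counts, so that these libraries differed less in it than in any of the 9 identity genes. The difference between these gene groups over 3 libraries was not tested.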
